A study of Mus musculus with 24 samples.

Results

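Predicted gene models are transcribed regions of the mouse genome that annotators gave a provisional symbol (Gm and a number), and 164 of them with a baseMean of at least 100 were examined in mouse liver. The baseMean is the authors' mean of normalised counts over the 8 libraries of the vehicle and PCN table. The 164 models were picked from 4246 models of any level, among 19209 rows with a symbol, and 8136 of those rows reached the same floor. The level itself was the rule, so levels over these 8 libraries are given as a description. Members ranged from 100.18 to 2190 normalised counts, with a median of 162.2. The models just inside the floor were Gm14325 (100.18) and Gm9353 (101.21), and those just outside were Gm45776 (99.78) and Gm17690 (99.69).

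Liver total RNA was sequenced from 24 male mice, 4 in each of 6 groups. C57BL/6N wild-type (WT) mice aged 19 to 20 weeks received pregnenolone 16α-carbonitrile (PCN) at 100 mg/kg, atorvastatin at 10 mg/kg, pravastatin at 10 mg/kg, or distilled water as vehicle. PXR knockout (PXRKO) mice on C57Bl/6N, aged 20 weeks, received atorvastatin at 10 mg/kg or the same vehicle. All were dosed by oral gavage for 4 days and then fasted for 12 h. PXR (gene Nr1i2) is the nuclear receptor that PCN activates in mouse liver. WT and PXRKO mice were dosed in different experiments, and genotype cannot be told apart from experiment. The cells in which PXR was removed are not given in the labels. Per the titles each library is a separate animal. The libraries of PCN and vehicle held 6636945 to 24636139 counts. The 164 models took 0.372% to 0.412% of the counts on rows with a symbol. Levels were available for all 164 models with PCN and WT vehicle, and for the listed models only elsewhere: 50 with WT atorvastatin, 33 with WT pravastatin, 32 with PXRKO atorvastatin and 23 with PXRKO vehicle.

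A symbol of this kind says nothing of function. It covers pseudogenes (copies of genes that lost their coding capacity), long noncoding RNAs, small RNAs of the nucleolus or Cajal body, and stretches of transcription inside introns that libraries of total RNA pick up together with unspliced precursor RNA. A few are named only for want of study and encode proteins, such as glycine N-acyltransferase relatives or zinc finger proteins.

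By GENCODE M21 annotation (build GRCm38), 156 of the 164 models matched by symbol and coordinates. The TEC class, which GENCODE keeps for regions still awaiting experimental support, held 72 of them. Another 49 were long noncoding RNAs, 22 were pseudogenes, 9 were annotated as protein coding and 4 as small RNAs. The other 8 had no match. Chromosome 1 carried 36 models, while chromosomes X and Y carried 0. The nearest named gene overlapped the model for 111 models, and 82 of these lay wholly inside a named gene on the same strand, 58 of them TEC. Of the 82, 78 covered 0% of their own length with an exon of the host, so that they sat in introns. The other 53 models stood apart from their nearest named gene, at a median of 21806 bases. Several hosts held more than 1 model: Ugt1a6b 6, Mgll 4, Picalm 3 and Rabgap1l 3.

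**Figure D1:**
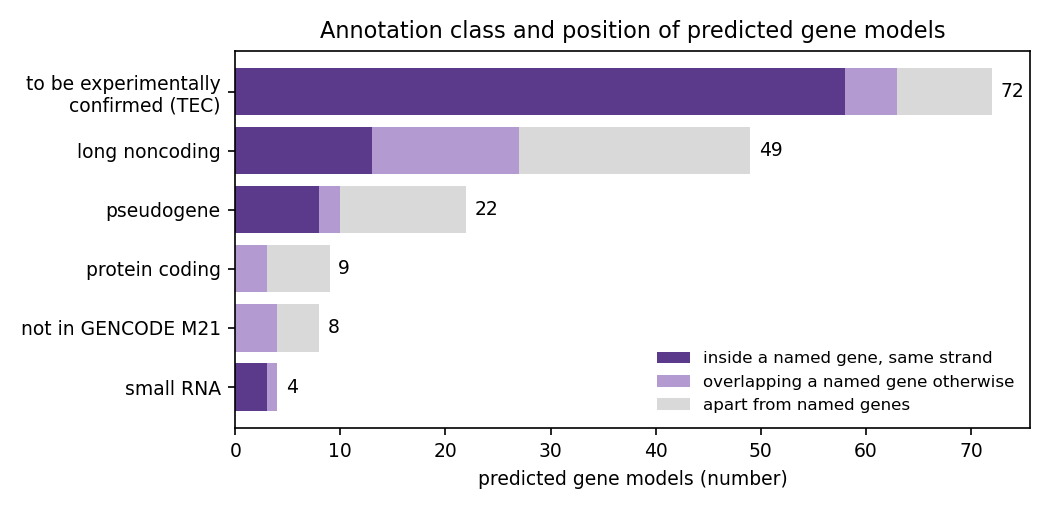
Number of predicted gene models (x axis) in each annotation class (y axis), divided by position relative to the nearest named gene. Of 72 TEC models, 58 lay inside a named gene on the same strand, against 13 of 49 long noncoding RNAs and 8 of 22 pseudogenes.

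The 4 small RNAs are shown because for them the annotated span is close to the mature molecule. Each overlaps a named gene, and reads of that gene's precursor RNA were not separated. Box C/D RNAs carry the motifs TGATGA and CTGA, and box H/ACA RNAs end in ACA followed by 3 bases. Both classes guide modification of other RNAs, and the scaRNAs act in Cajal bodies. Capitals mark each TGATGA and CTGA, and the ACA before the last 3 bases, on the transcribed strand.
Gm25395 (scaRNA, chr1:87776938-87777209, plus strand): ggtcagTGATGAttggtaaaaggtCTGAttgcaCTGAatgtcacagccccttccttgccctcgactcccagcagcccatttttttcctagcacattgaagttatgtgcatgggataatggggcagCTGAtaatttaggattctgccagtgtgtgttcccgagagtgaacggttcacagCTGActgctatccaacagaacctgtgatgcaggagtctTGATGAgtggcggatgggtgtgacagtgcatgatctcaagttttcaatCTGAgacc
Gm22442 (scaRNA, chr11:69350518-69350661, minus strand): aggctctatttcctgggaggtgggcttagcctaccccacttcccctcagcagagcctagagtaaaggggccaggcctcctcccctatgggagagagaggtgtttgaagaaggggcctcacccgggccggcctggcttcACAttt
Gm25776 (snoRNA, chr12:91573430-91573572, minus strand): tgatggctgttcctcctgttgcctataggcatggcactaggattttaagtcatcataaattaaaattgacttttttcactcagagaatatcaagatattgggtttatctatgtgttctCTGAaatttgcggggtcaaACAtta
Gm24336 (snoRNA, chr19:44113979-44114124, minus strand): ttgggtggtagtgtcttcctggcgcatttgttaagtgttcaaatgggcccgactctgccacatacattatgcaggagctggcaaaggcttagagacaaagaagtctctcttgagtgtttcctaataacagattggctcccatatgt
Gm25395 held 2 TGATGA and 5 CTGA, and Gm22442 and Gm25776 ended in ACA before the last 3 bases. Of 1558 snoRNA and scaRNA transcripts in GENCODE M21, 25.6% hold TGATGA together with CTGA, and 19.3% have that terminal ACA. Gm24336 had neither. Gm22442, inside Chd3, held 373, 398, 395 and 377 normalised counts with PCN, against 345, 332, 334 and 355 with vehicle. The groups did not overlap, but the log2 change of 0.18 ± 0.07 did not pass (edgeR adjusted p = 0.232). Chd3 itself was called higher, at a log2 change of 0.51 ± 0.12 (edgeR adjusted p = 0.0420). Gm25395, inside the autophagy gene Atg16l1, held 652, 640, 744 and 579 with PCN, against 601, 545, 590 and 560 with vehicle, with overlap (log2 0.19 ± 0.09, edgeR adjusted p = 0.271). Atg16l1 had a log2 change of 0.13 ± 0.09 (edgeR adjusted p = 0.465).

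With PCN, 21 of the 164 models passed edgeR's quasi-likelihood test at a Benjamini-Hochberg adjusted p of 0.05 over all 12855 genes tested, 8 higher and 13 lower. That is 12.8% of the models. Over all genes tested 3.56% were called, and over the 8136 genes with a baseMean of at least 100, 4.74% were called (2.5% higher, 2.25% lower). The median absolute log2 change was 0.26 for the models and 0.12 for the genes with a baseMean of at least 100. The median log2 change was 0.09 for the models and -0.02 for those genes. PCN and vehicle libraries did not overlap for 38 of the 164 models (23.2%), and for 13.8% of the genes with a baseMean of at least 100. Among 130 clone-named models (symbols ending in Rik) at the same floor, 6 were higher and 2 lower, 6.15% in all. The direction of all 21 models stayed the same when any of the 8 libraries was left out. For 20 of them the groups do not overlap, so leaving out 1 library could hardly reverse it. Of the 21, 9 kept the call in every such fit. The count fell to 13 without vehicle library 1, to 11 without vehicle library 2 and to 10 without PCN library 2. Over all genes tested, these fits called 265 of 13327, 293 of 12828 and 222 of 13268, against 458 of 12855 with all libraries. DESeq2 on the same counts called 33 models, 15 higher and 18 lower, and 3.94% of all genes with a symbol. The authors' adjusted p called 28 models and 3.21% of all genes with a symbol. Both of these gene shares cover rows of any level, and the shares at a baseMean of at least 100 were not computed.

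**Figure D2:**
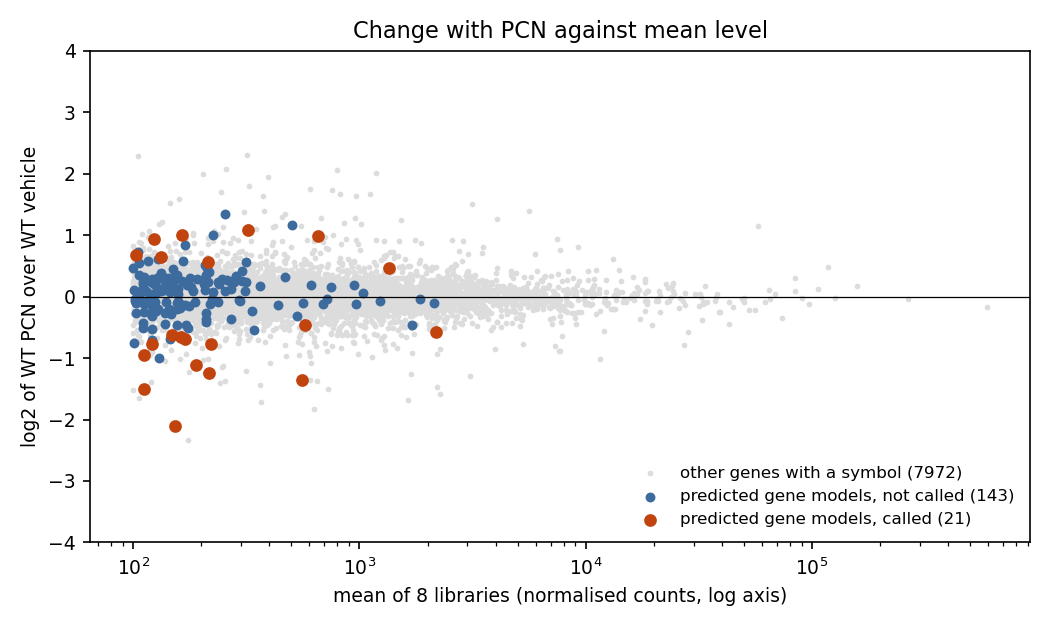
Log2 of WT PCN over WT vehicle from edgeR (y axis) against the mean of 8 libraries in normalised counts (log x axis), for genes with a baseMean of at least 100. The 21 called models lie at both signs of the axis, from -2.11 (Gm49839) to 1.09 (Gm4673).

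By class, the called models were 8 of 72 TEC (2 higher, 6 lower), 5 of 49 long noncoding RNAs (3 higher, 2 lower), 2 of 22 pseudogenes (1 each way), 2 of 9 protein coding (1 each way), 4 of the 8 unmatched (1 higher, 3 lower) and 0 of 4 small RNAs. The 4 small RNAs had log2 changes of 0.12 to 0.31 with PCN.

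Gm8941, a processed pseudogene on chromosome 1 (chr1:151136507-151137780), rose with PCN. Its 4 PCN libraries held 790, 1027, 783 and 889 normalised counts, against 449, 536, 415 and 354 in WT vehicle. Every PCN library lay above every vehicle library. The mean was 872.4 ± 114 with PCN and 438.5 ± 76.1 with vehicle (SD, n = 4 each), a log2 change of 0.99 ± 0.13 (SE, edgeR, adjusted p = 0.00234). It kept the call in 8 of 8 fits that left out a library. The nearest named gene, Hmcn1 (hemicentin, a matrix protein), lies 143072 bases away on the other strand and had a log2 change of 0.32 ± 0.16 with PCN (edgeR adjusted p = 0.331). Of the words of 31 bases in its transcript of 899 bases, 16.9% are shared with at least 1 of 199 other genes, so reads may be divided between copies. The most similar, Gm4795 (another processed pseudogene), shares 3.0%. Bases 477 to 776 of the spliced transcript are printed because all words shared with Gm4795 fall there, and capitals mark them.
Gm8941 (processed pseudogene, plus strand): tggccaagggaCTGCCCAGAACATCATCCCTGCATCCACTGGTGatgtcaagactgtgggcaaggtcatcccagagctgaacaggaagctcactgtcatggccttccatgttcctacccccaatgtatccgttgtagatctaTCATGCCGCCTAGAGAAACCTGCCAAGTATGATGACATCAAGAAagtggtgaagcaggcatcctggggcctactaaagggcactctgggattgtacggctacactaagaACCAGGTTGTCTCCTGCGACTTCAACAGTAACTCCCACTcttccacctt
The capitals cover 116 of these bases of Gm8941.

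Gm4673, an antisense RNA that overlaps Lsr (the lipolysis stimulated lipoprotein receptor, which clears triglyceride-rich particles) on the opposite strand, held 372, 403, 426 and 526 normalised counts with PCN, against 178, 148, 284 and 227 with vehicle. The groups did not overlap. The log2 change was 1.09 ± 0.18 (SE, edgeR adjusted p = 0.00763), and that of Lsr was -0.06 ± 0.10 (adjusted p = 0.776). The library kit keeps strand, but whether the authors counted by strand is not given, so reads of an antisense model and its partner cannot be fully told apart.

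Gm14403, a protein-coding model beside zinc finger genes on chromosome 2, held 215, 176, 302 and 191 normalised counts with PCN, against 108, 132, 75.6 and 112 with vehicle. All PCN libraries were above all vehicle libraries, at a log2 change of 1.00 ± 0.19 (SE, edgeR adjusted p = 0.0139). Its neighbour Zfp970, 20086 bases away on the same strand, also rose, by a log2 of 0.67 ± 0.12 (edgeR adjusted p = 0.010). Gm14403 shares 35.6% of its words of 31 bases with Gm11007, so its reads could have been assigned between near copies.

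Gm30262, a long intergenic noncoding RNA 90532 bases from Phlda1, held 202, 207, 95.6 and 148 normalised counts with PCN, against 86.3, 101, 70.0 and 79.9 with vehicle. Of the PCN libraries, 1 lay within the vehicle range. The log2 change was 0.94 ± 0.22 (edgeR adjusted p = 0.0365), and the call held in 1 of 8 fits that left out a library, with an adjusted p of up to 0.110 (without PCN library 2). Phlda1 had a log2 change of 1.64 ± 0.44 (edgeR adjusted p = 0.0669).

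The largest falls belonged to a pair of models that overlap Fkbp5, a glucocorticoid-induced co-chaperone of steroid receptors. Gm49839 held 80.0, 65.4, 50.1 and 39.2 normalised counts with PCN, against 337, 367, 82.9 and 205 with vehicle. The lowest vehicle library stood just above the highest PCN library. The log2 change was -2.11 ± 0.38 (SE, edgeR adjusted p = 0.0114). Gm49838 held 68.4, 76.3, 53.1 and 41.4 with PCN, against 175, 212, 79.2 and 187 with vehicle, at a log2 change of -1.5 ± 0.27 (edgeR adjusted p = 0.0122). Vehicle library 3 was the lowest of the vehicle libraries for both models. Fkbp5 itself had 2206, 1800, 1677 and 2126 normalised counts with PCN, against 1014, 1432, 776 and 2323 with vehicle, and its log2 change of 0.49 ± 0.26 did not pass (edgeR adjusted p = 0.349). Neither model is in GENCODE M21, so their strand is not known here.

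Gm38070 lies in an intron of Il1r1, the interleukin 1 receptor. It held 451, 439, 172 and 190 normalised counts with PCN, against 833, 1051, 606 and 715 with vehicle, with no overlap. Its log2 change was -1.36 ± 0.29 (edgeR adjusted p = 0.0253), and it kept the call in 5 of 8 fits that left out a library (adjusted p up to 0.0776, without vehicle library 2). Il1r1 had a log2 change of -0.06 ± 0.25 (edgeR adjusted p = 0.857).

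Gm15889, a long intergenic noncoding RNA, ends 6121 bases before Herpud1, an endoplasmic reticulum stress gene on the same strand. It held 123, 159, 115 and 123 normalised counts with PCN, against 397, 436, 166 and 215 with vehicle. PCN libraries were all lower, and vehicle libraries fell into a high and a low pair, which follow the 2 series of animal numbers in the titles. The PCN fit held no term for these series, and their part in the change was not tested. The log2 change was -1.25 ± 0.27 (edgeR adjusted p = 0.0251), a call kept in 2 of 8 fits that left out a library (adjusted p up to 0.0794, without PCN library 4). Herpud1 fell too, to 5345 ± 282 normalised counts with PCN, against 9861 ± 1044 with vehicle (SD, n = 4 each), a log2 change of -0.88 ± 0.09 (edgeR adjusted p = 0.00075).

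Gm43359 and Gm48372, TEC models in introns of Atp2a2 (the endoplasmic reticulum calcium pump SERCA2) and Fgd6, were lower too. Gm43359 held 123, 88.5, 118 and 136 normalised counts with PCN, against 227, 183, 402 and 234 with vehicle, a log2 change of -1.11 ± 0.22 (edgeR adjusted p = 0.0185; 0.0672 without PCN library 2). Gm48372 held 66.0, 95.4, 62.2 and 78.3 with PCN, against 175, 130, 164 and 125 with vehicle, a log2 change of -0.96 ± 0.17 (edgeR adjusted p = 0.0115). The groups did not overlap for either. Atp2a2 fell by 0.41 on the log2 scale (edgeR adjusted p = 0.0298).

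**Figure D3:**
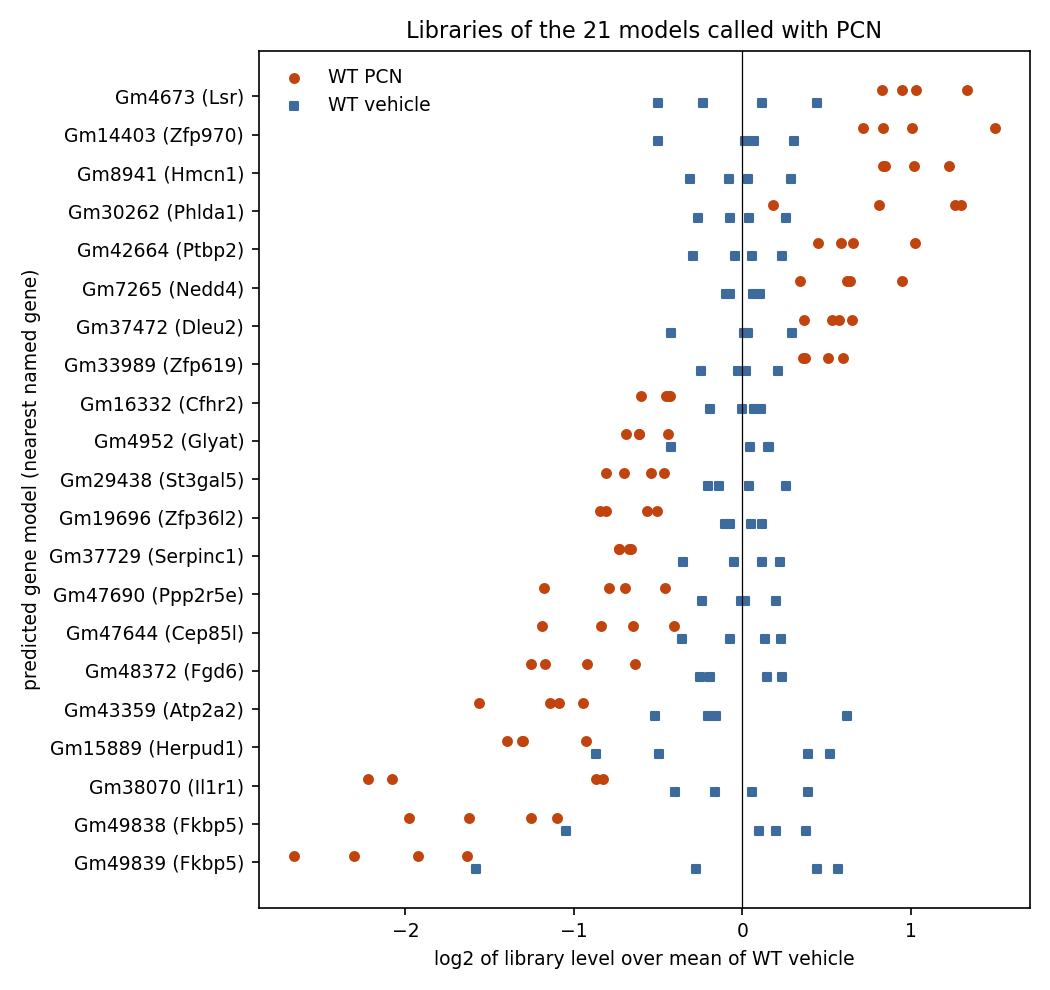
Log2 of each library over the mean of WT vehicle (x axis) for the 21 models called with PCN, each with its nearest named gene (y axis). Circles are WT PCN and squares WT vehicle libraries. The groups do not overlap for 20 of the 21, the exception being Gm30262. The call rests on these same libraries, and the share without overlap among all genes called with PCN was not computed.

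The models of highest baseMean showed smaller changes. Gm4952, a protein-coding relative of glycine N-acyltransferase (Glyat, which conjugates acyl groups to glycine) that neighbours Glyat on chromosome 19, held 1721, 1628, 1938 and 1719 normalised counts with PCN, against 2707, 1957, 2932 and 2918 with vehicle. PCN libraries were all lower, and vehicle library 2 stood just above them. The log2 change was -0.58 ± 0.12 (edgeR adjusted p = 0.0225), kept in 4 of 8 fits that left out a library (adjusted p up to 0.0804, without PCN library 2), while Glyat had 0.14 ± 0.07 (adjusted p = 0.294). Gm33989, an unmatched model 3982 bases from Zfp619, held 1463, 1714, 1612 and 1454 with PCN, against 1112, 954, 1150 and 1311 with vehicle. Its log2 change was 0.47 ± 0.10 (edgeR adjusted p = 0.0254), kept in 3 of 8 fits that left out a library (adjusted p up to 0.0870, without PCN library 2).

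Gm43189, a sense intronic noncoding RNA, held 1068, 1131, 1870 and 1698 normalised counts with PCN, against 1875, 1947, 2154 and 1957 with vehicle. PCN libraries were all lower, in a low and a high pair, and the log2 change of -0.46 ± 0.16 did not pass (edgeR adjusted p = 0.153). The other 5 of the 8 models of highest baseMean did not pass either: Gm4951 (which shares 10.4% of its words of 31 bases with the immunity-related GTPase gene Iigp1) at -0.11, Gm4756 at -0.04, Gm44250 at -0.08, Gm20319 at 0.06 and Gm10319 (a pseudogene near Mug-ps1) at -0.12 on the log2 scale, with the PCN and vehicle libraries overlapping in each.

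For the 82 models inside a named gene on the same strand, model and host could be compared in the same libraries. Of the 64 distinct hosts, 8 were called. Of the 82 models 10 were called, 3 higher and 7 lower. For 2 of the 10 the host was called as well, in the same direction. These 2 were Gm43359 with Atp2a2 and Gm47644 with Cep85l. Gm47644 held 121, 176, 208 and 154 normalised counts with PCN, against 323, 303, 216 and 262 with vehicle. Its log2 change was -0.77 ± 0.17 (edgeR adjusted p = 0.0254). The call was kept in 4 of 8 fits that left out a library (adjusted p up to 0.0811, without PCN library 4). Cep85l fell by 0.49 on the log2 scale (edgeR adjusted p = 0.031). Gm37729, inside the antithrombin gene Serpinc1, held 127, 127, 132 and 133 with PCN, against 165, 204, 229 and 246 with vehicle, a log2 change of -0.69 ± 0.13 (edgeR adjusted p = 0.0129). Serpinc1 was at 20362 ± 1406 with PCN and 21052 ± 981 with vehicle (SD, n = 4 each), with an edgeR adjusted p of 0.782.

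Across the 82 models, 57 had the sign of their host, and Spearman's rho of the log2 changes was 0.55 (Pearson's r 0.56). The 82 share 64 hosts and the same 8 libraries, so this is a description across genes. The log2 changes had an SD of 0.45 for the models and 0.22 for the hosts, and 67 models had the larger absolute change of the pair. In vehicle libraries 0 of the 82 models were above the level of their host, and the part of their lower counts in that spread was not tested. Among the 53 models apart from named genes, 8 were called, and the nearest gene was called for 3 of these. Over all 53 models, the nearest gene was tested for 44 and called for the same 3 only. Gm19696, which was lower at 125.6 ± 14.6 with PCN and 200.3 ± 14.7 with vehicle (edgeR adjusted p = 0.0101), lies 27491 bases from Zfp36l2 (an mRNA decay factor), which was higher by a log2 of 0.55 (edgeR adjusted p = 0.0313). Gm19696 is outside the rule for named models and was chosen after its values were seen.

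**Figure D4:**
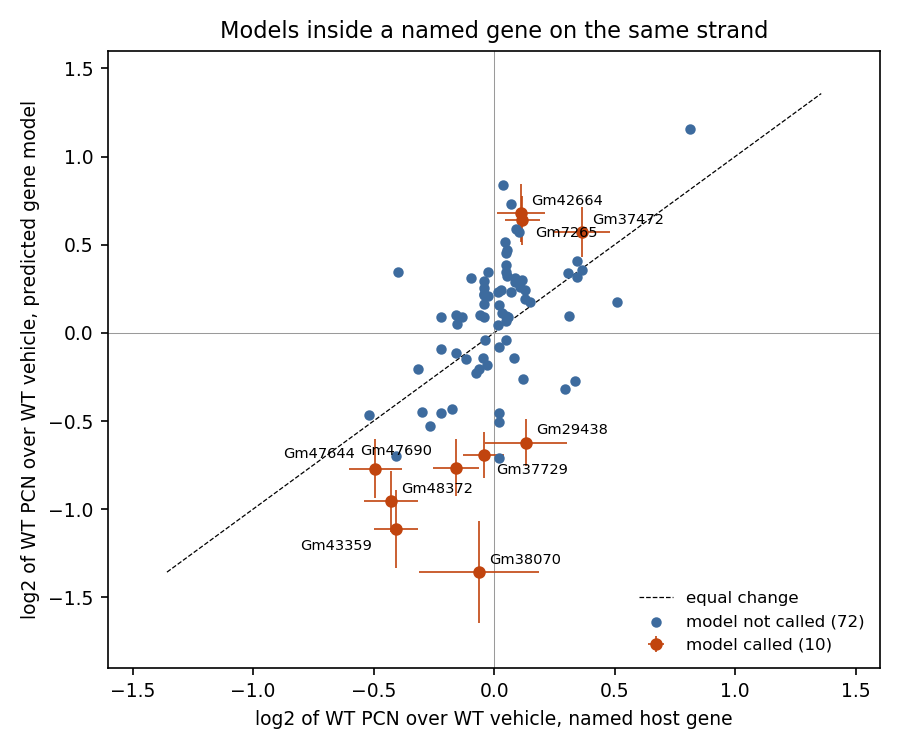
Log2 of WT PCN over WT vehicle for the predicted gene model (y axis) and its named host gene (x axis), for 82 models inside a host on the same strand, with SE bars on the 10 called. All 10 called models lie farther from 0 than their hosts, a choice made by the call on the model itself.

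With atorvastatin in WT mice, the authors' deposited table at an adjusted p of 0.05 listed 30 of the 164 models (18.3%), 17 higher and 13 lower. Of the genes with a baseMean of at least 100, 13.3% were listed (7.33% higher, 6% lower). The libraries of 21 of the 30 did not overlap between the groups, a smaller share than the 83.7% of all genes the authors called there. An edgeR fit on the genes listed up to an adjusted p of 0.1 called 16 of 34 models, 8 each way, and 43.9% of all listed genes, so the models' share lay near that of all listed genes. It called 10 models without vehicle library 1 or without atorvastatin library 1. The PCN and atorvastatin comparisons share their vehicle libraries. The log2 values quoted from the deposited tables of this threshold are moderated toward 0 by the authors, and the fold of the group means is given beside those of the models described one by one.

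Gm8941 held 753, 807, 876 and 931 normalised counts with WT atorvastatin, against 449, 536, 415 and 354 with WT vehicle, 1.92-fold by the means (authors' deposited table, log2 0.86, adjusted p = 3.09e-10). Gm4673 held 337, 409, 583 and 711 with atorvastatin, against 178, 148, 284 and 227 with vehicle, 2.44-fold (authors' deposited table, log2 1.00, adjusted p = 6.40e-06). All atorvastatin libraries were above all vehicle libraries for both. Gm45909 is a TEC model of 1031 bases (chr8:93190328-93191358) inside Ces1d, a carboxylesterase that hydrolyses lipids and drugs. It held 903, 635, 1057 and 637 with atorvastatin, against 204, 381, 372 and 292 with vehicle, 2.59-fold (authors' deposited table, log2 1.12, adjusted p = 1.22e-08). Ces1d moved the same way, to 16352 ± 2348 with atorvastatin, against 6734 ± 1046 with vehicle (SD, n = 4 each; authors' deposited table, log2 1.17, adjusted p = 2.78e-18). With PCN, Gm45909 spread from 298 to 955, overlapped vehicle and did not pass (log2 1.16 ± 0.32, edgeR adjusted p = 0.0692). Its log2 change ran from 0.96 to 1.42 over the fits that left out a library.

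Gm43609, a TEC model in Abcd3 (a peroxisomal transporter), held 319, 256, 360 and 230 normalised counts with atorvastatin, against 216, 140, 158 and 172 with vehicle, 1.70-fold higher with no overlap (authors' deposited table, log2 0.66, adjusted p = 0.000568). Gm38070 fell to 187, 268, 346 and 295 with atorvastatin, against 833, 1051, 606 and 715 with vehicle, 2.92-fold lower (authors' deposited table, log2 -1.30, adjusted p = 1.42e-12). Gm36041, a noncoding RNA 13466 bases from Avpr1a (a vasopressin receptor), held 60.6, 80.7, 73.8 and 22.2 with atorvastatin, against 191, 141, 254 and 114 with vehicle, 2.95-fold lower with no overlap (authors' deposited table, log2 -1.0, adjusted p = 0.000147). Avpr1a was also lower, at a log2 of -0.77 in the authors' deposited table (adjusted p = 0.00019).

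Gm43359 averaged 136.9 ± 23.5 with atorvastatin and 261.6 ± 96.2 with vehicle (SD, n = 4 each), 1.91-fold lower (authors' deposited table, log2 -0.73, adjusted p = 0.00137). Gm4952 held 1223, 1840, 1285 and 1718 with atorvastatin, against 2707, 1957, 2932 and 2918 with vehicle, all atorvastatin libraries being lower, by 1.73-fold in the means (authors' deposited table, log2 -0.70, adjusted p = 5.58e-05).

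With pravastatin, the authors' deposited table at an adjusted p of 0.05 listed 2 of the 164 models, both lower (1.22%, where 0.27% of the genes with a baseMean of at least 100 were listed, 0.135% as lower). Gm38070 held 276, 246, 389 and 467 normalised counts with pravastatin, against 833, 1051, 606 and 715 with vehicle, 2.32-fold lower with no library overlapping (authors' deposited table, log2 -0.71, adjusted p = 2.38e-05). Gm47644 held 174, 112, 202 and 160 with pravastatin, against 323, 303, 216 and 262 with vehicle, 1.71-fold lower (authors' deposited table, log2 -0.51, adjusted p = 0.0194). The edgeR fit on listed genes called 0 models for pravastatin, and 0.215% of all listed genes. Gm38070 and Gm47644 were lower than the same vehicle libraries in all 3 WT treatments.

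In the PXRKO mice, Nr1i2 counts were reduced but present, at 571 ± 117 normalised counts with atorvastatin and 605 ± 53.0 with vehicle, against 1500 ± 118 with WT atorvastatin and 1255 ± 135 with WT vehicle (SD, n = 4 each). PXRKO vehicle against WT vehicle, the authors' deposited table listed 11 of the 164 models (6.71%), all lower, where 2.74% of the genes with a baseMean of at least 100 were listed and 1.33% were listed as lower. The libraries of 7 of the 11 did not overlap, a smaller share than the 85.7% of all genes the authors called there. The edgeR fit on listed genes called 4 of 16 models, all lower (Gm15638, Gm8941, Gm15889 and Gm43189), and 23.6% of all listed genes, so the models' share lay near that of all listed genes. It called 2 models without WT vehicle library 1 or 2 or without PXRKO vehicle library 2 or 4.

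Gm15638 is an antisense RNA on chromosome 16 that overlaps Plcxd2 (a phospholipase C domain gene) on the opposite strand and lies 7.65 Mb from Nr1i2. PXRKO libraries held 23.9, 20.5, 48.7 and 39.5 normalised counts with atorvastatin and 20.4, 32.1, 19.4 and 49.3 with vehicle, against 146, 155, 144 and 170 with WT atorvastatin and 191, 121, 197 and 106 with WT vehicle. No PXRKO library reached a WT library. The authors' deposited tables gave a log2 of -1.30 with vehicle (adjusted p = 6.84e-12) and -1.79 with atorvastatin (adjusted p = 3.39e-18), and the means were 5.07-fold and 4.65-fold lower in PXRKO. Plcxd2 was higher in PXRKO, by a log2 of 0.44 with vehicle (adjusted p = 0.0199) and 0.48 with atorvastatin (adjusted p = 0.0391) in the authors' deposited tables. With PCN, Gm15638 did not pass (log2 -0.27 ± 0.23, edgeR adjusted p = 0.570).

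Gm8941 was lower in PXRKO, at 238, 189, 236 and 182 normalised counts with PXRKO vehicle, against 449, 536, 415 and 354 with WT vehicle, 2.08-fold lower (authors' deposited table, log2 -0.87, adjusted p = 5.48e-09). With atorvastatin it held 218, 308, 156 and 79.0 in PXRKO, against 753, 807, 876 and 931 in WT, 4.43-fold lower (authors' deposited table, log2 -1.34, adjusted p = 2.86e-06). Its level thus ordered as PCN and atorvastatin in WT, then WT vehicle, then the PXRKO groups, where PCN and atorvastatin overlap and the PXRKO groups overlap. Gm15889 held 121, 67.4, 113 and 135 with PXRKO vehicle, against 397, 436, 166 and 215 with WT vehicle, 2.78-fold lower (authors' deposited table, log2 -0.62, adjusted p = 0.0135). Gm43189 held 1645, 961, 984 and 1111 with PXRKO vehicle, against 1875, 1947, 2154 and 1957 with WT vehicle, 1.69-fold lower (authors' deposited table, log2 -0.62, adjusted p = 0.000223). PXRKO libraries were all below WT vehicle for these 3 models.

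The other 7 models listed between PXRKO vehicle and WT vehicle included Gm4756 at 1502 ± 142 in PXRKO and 1875 ± 114 in WT, and Gm15374 at 147.6 ± 24.0 in PXRKO and 221.9 ± 21.1 in WT (SD, n = 4 each). Gm26684, which overlaps the autotaxin gene Enpp2, was at 151.2 ± 26.5 in PXRKO and 239.9 ± 40.2 in WT. The libraries of these 3 did not overlap. They overlapped for Gm48225 at 523.3 ± 85.0 in PXRKO and 732.9 ± 113 in WT, and for Gm37729 at 142.3 ± 15.9 in PXRKO and 210.7 ± 35.0 in WT. They also overlapped for Gm49838 at 77.3 ± 21.1 in PXRKO and 163.5 ± 58.3 in WT, and for Gm47644 at 165.7 ± 55.7 in PXRKO and 276.1 ± 47.7 in WT. Their log2 values in the authors' deposited table ran from -0.66 (Gm49838) to -0.30 (Gm4756). The largest by means was Gm49838, 2.11-fold lower in PXRKO. None of these 7 passed the edgeR fit on listed genes.

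With atorvastatin in both genotypes, the authors' deposited table listed 26 of the 164 models (15.9%) between PXRKO and WT, 7 higher and 19 lower in PXRKO, where 13.2% of the genes with a baseMean of at least 100 were listed (5.9% higher, 7.28% lower). The libraries of 20 of the 26 did not overlap, a smaller share than the 85.5% of all genes the authors called there. The edgeR fit on listed genes called 20 of 26 models, 6 higher and 14 lower, and 69% of all listed genes. It called 12 models without PXRKO atorvastatin library 3 or without WT atorvastatin library 1, and 13 without PXRKO atorvastatin library 1. Of the models listed between genotypes, 5 stood in both the vehicle and the atorvastatin comparison, all lower in PXRKO in both. They were 45.5% of the 11 and 19.2% of the 26. The same shares over all genes the authors called were not computed. These comparisons share no library, but in both of them genotype cannot be told apart from experiment.

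Gm45909 held 206, 401, 215 and 284 normalised counts in PXRKO with atorvastatin, against 903, 635, 1057 and 637 in WT with atorvastatin, 2.92-fold lower (authors' deposited table, log2 -1.30, adjusted p = 6.69e-10). No library overlapped. Ces1d was lower as well, at 8802 ± 3480 in PXRKO and 16352 ± 2348 in WT (SD, n = 4 each; authors' deposited table, log2 -0.66, adjusted p = 0.0384). Gm15889 held 107, 97.8, 68.2 and 74.2 in PXRKO, against 204, 184, 184 and 137 in WT, 2.05-fold lower (authors' deposited table, log2 -0.92, adjusted p = 3.85e-06), and Herpud1 was lower too (log2 -0.52, adjusted p = 0.0142, same table).

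Gm4952 went the other way, at 2990, 2655, 2176 and 2162 in PXRKO with atorvastatin, against 1223, 1840, 1285 and 1718 in WT with atorvastatin, 1.65-fold higher (authors' deposited table, log2 0.66, adjusted p = 0.000183). Every PXRKO library was higher. Gm49970, inside the span of Osbpl1a, held 230, 114, 228 and 133 in PXRKO, against 64.1, 154, 65.7 and 92.8 in WT, 1.87-fold higher with overlap (authors' deposited table, log2 0.67, adjusted p = 0.0367). Gm10319 averaged 1245 ± 108 in PXRKO and 844.1 ± 42.8 in WT (SD, n = 4 each), 1.47-fold higher (authors' deposited table, adjusted p = 4.84e-08).

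**Figure D5:**
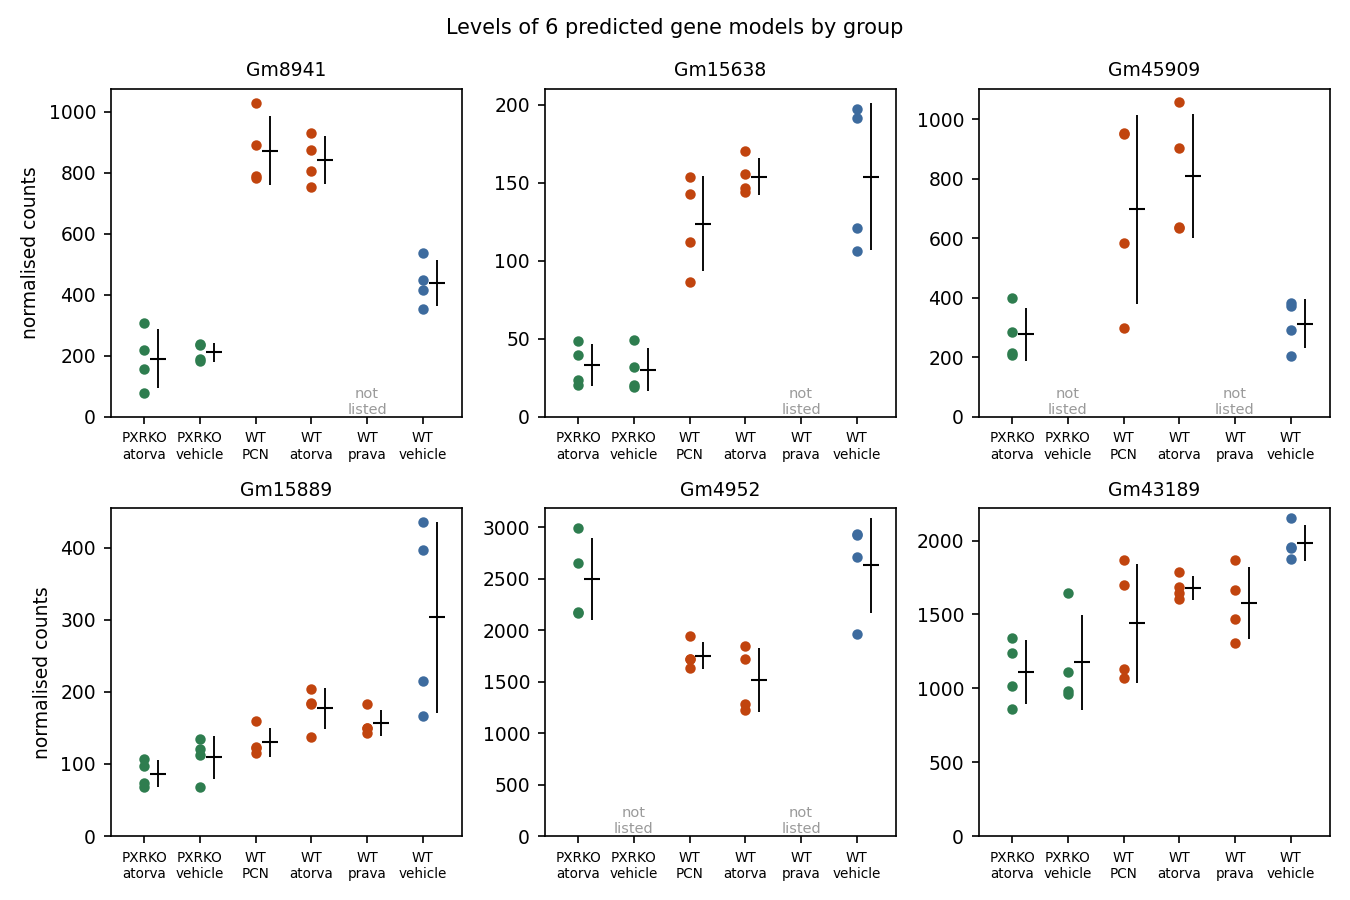
Normalised counts (y axis) of 6 models in each library of the groups that list them, with mean and SD beside the points (n = 4). Gm15638 stays between 19.4 and 49.3 in the 8 PXRKO libraries, below every WT library shown.

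The Ugt1a locus encodes glucuronosyltransferases from variable first exons joined to a common end, and its pseudogenes are relics of such first exons. The 6 members there lie inside Ugt1a6b (chromosome 1) on the same strand. With PCN none was called, at log2 changes of 0.09 to 0.29. With atorvastatin all 6 were listed as lower in PXRKO than in WT: Gm15372 at a log2 of -0.74, Gm15371 at -0.66, Gm15376 at -0.63, Gm15374 at -0.59, Gm15368 at -0.54 and Gm15369 at -0.50 in the authors' deposited table. Gm15372 held 188, 216, 150 and 187 normalised counts in PXRKO, against 344, 301, 328 and 294 in WT, 1.71-fold lower (adjusted p = 5.82e-07 in the authors' deposited table). Gm15371 held 138, 137, 106 and 136 in PXRKO, against 259, 198, 230 and 168 in WT, 1.65-fold lower (adjusted p = 0.000653, same authors' deposited table). The groups overlapped for Gm15368 and Gm15376 and did not for the other 4. Ugt1a6b was listed as lower too, at 592 ± 81.5 in PXRKO and 803 ± 25.5 in WT (SD, n = 4 each; authors' deposited table, log2 -0.42, adjusted p = 0.00147). These 6 share a locus and are not independent, and they were named together after their values were seen.

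PXRKO atorvastatin against PXRKO vehicle, the authors' deposited table at an adjusted p of 0.05 listed 0 of the 164 models, where 0.111% of the genes with a baseMean of at least 100 were listed. The edgeR fit on listed genes called 0 of the 8 models that the least filtered table of that pair holds, and 0% of its genes. For Gm8941 the means were 190 ± 96.8 with PXRKO atorvastatin and 211 ± 29.9 with PXRKO vehicle, against 841.7 ± 78.0 with WT atorvastatin and 438.5 ± 76.1 with WT vehicle (SD, n = 4 each). Whether the effect of atorvastatin on it differs between the genotypes was not tested.

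Promoters of 3 of these models are shown as RefSeq gives them (build GRCm38.p6, 250 bases before to 50 after the start), because the models differ between groups and the windows can be searched for motifs of nuclear receptors. RefSeq held a promoter for 29 of the 164 models. Searched on both strands were the hexamer AGGTCA or its variant AGTTCA, their direct repeats with 3 or 4 bases between and everted repeats with 6, the E-box CACGTG, the TATA box motif TATAAA, and the CCAAT box. Capitals mark the matches.
Gm15889 (chr8:94377625-94377924, plus strand): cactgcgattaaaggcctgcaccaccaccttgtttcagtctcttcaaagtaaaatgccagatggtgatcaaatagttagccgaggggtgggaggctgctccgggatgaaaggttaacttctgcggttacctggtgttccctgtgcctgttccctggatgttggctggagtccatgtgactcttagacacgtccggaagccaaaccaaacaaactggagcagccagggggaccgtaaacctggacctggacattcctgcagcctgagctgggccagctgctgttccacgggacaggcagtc
Gm15638 (chr16:45945356-45945655, plus strand): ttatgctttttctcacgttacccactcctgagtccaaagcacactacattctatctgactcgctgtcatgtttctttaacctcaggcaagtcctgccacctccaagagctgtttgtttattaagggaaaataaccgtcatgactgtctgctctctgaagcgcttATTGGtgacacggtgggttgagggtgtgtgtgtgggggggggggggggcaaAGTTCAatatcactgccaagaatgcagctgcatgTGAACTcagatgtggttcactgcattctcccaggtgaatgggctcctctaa
Gm4952 (chr19:12599734-12600033, plus strand): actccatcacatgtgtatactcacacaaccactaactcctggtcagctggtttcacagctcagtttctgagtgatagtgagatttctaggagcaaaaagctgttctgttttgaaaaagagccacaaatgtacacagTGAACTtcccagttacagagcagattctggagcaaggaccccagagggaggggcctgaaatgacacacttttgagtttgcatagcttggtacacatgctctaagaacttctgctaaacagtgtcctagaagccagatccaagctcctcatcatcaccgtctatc
Gm15638 held 2 hexamers and 1 CCAAT, Gm4952 held 1 hexamer, and Gm15889 had no match. The windows of Gm14403 and of the gene Herpud1 were searched too and are not printed. Each held 1 hexamer and 2 CCAAT. Of 32851 RefSeq promoters, 27.7% hold AGGTCA or AGTTCA, 37.4% CCAAT, 13.6% TATAAA and 7.15% CACGTG. A direct repeat with 3 bases between is in 0.0122% of them, with 4 bases in 0.0274%, and the everted repeat in 0.00913%.

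Some members cannot be read apart from a near copy. Gm28437 shares 100% of its words of 31 bases with mt-Co3, a mitochondrially encoded subunit of cytochrome c oxidase, and Gm13340 shares 45.2% with mt-Co1. Gm28437 held 124, 108, 114 and 130 normalised counts with PCN, against 97.3, 95.1, 107 and 107 with vehicle, and did not pass (log2 0.24 ± 0.12, edgeR adjusted p = 0.324). The 17 mitochondrially encoded genes tested had a median log2 change of 0.25 with PCN, with 0 called. Gm8893 shares 66.3% with Serpina1a, Gm6493 60.0% with Tnpo1 and Gm14325 82.6% with Gm14399.

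The tissue label was met by hepatocyte markers, whose 7 genes summed to 738052 to 806236 normalised counts with PCN and 823583 to 945767 with vehicle, with 1 of 7 lower. The 9 Kupffer cell markers summed to 1339 to 3076 with PCN and 2266 to 4067 with vehicle, with 0 called and a median log2 of -0.43. With PCN, 0 of 7 endothelial, 1 of 7 stellate, 0 of 3 cholangiocyte, 0 of 3 leukocyte, 0 of 2 red blood cell and 0 of 1 pancreatic acinar markers tested were called. The part of such shifts in the results was not tested. In bulk tissue, fewer cells of a type and less RNA per cell cannot be told apart. Of 5 genes listed as positive checks, Cyp3a11, Cyp2b10, Ces2a, Per3 and Arntl, 3 were higher and 1 lower with PCN. Of 27 named long noncoding RNAs 1 was higher, of 69 ribosomal protein genes 1 was higher, and of 1 short structural RNA tested 0 passed, with median log2 changes of 0.10, 0.07 and -0.04.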

How the data were processed

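Liver total RNA libraries of 24 mice were tabulated by the authors as raw counts per gene beside statistics for pairs of groups. Per the submitters' processing notes, reads were counted with HTSeq and tested with DESeq2 on build GRCm38, and per the labels the kit was Illumina Stranded Total RNA. For the aligner, annotation and strand setting, nothing is given in the sources used here. The baseMean deposited is a signal, the mean of counts over DESeq2 size factors. The deposited log2 fold changes and p-values are the authors' own, and were moderated in the tables selected at an adjusted p of 0.05. The 104 per-sample columns used were mapped to groups by table names. Replicates are numbered in column order.

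The members and gene lists were chosen with earlier results of these data known. Least squares on counts and baseMean recovered the size factors (median error at most 0.0041%), and tables were set on 1 scale through shared groups (spread at most 0.427%). Levels in groups other than WT vehicle and PCN are thus set across separately normalised tables. For PCN, edgeR 4.0.16 (TMM, filterByExpr, quasi-likelihood F test, R 4.3.3) was run on the rows with a symbol of the only table that lists nearly all genes (up to an adjusted p of 0.990). The 441 rows with no symbol, 4.37% to 5.88% of counts, stayed out. Other tables list genes by their own p-value, so calls there are the authors', beside an edgeR fit on the listed genes that borrows dispersion trend and prior from the PCN fit. The fit was tested on simulated data. DESeq2 1.42.0 was an alternative. Most models named with values follow a rule. It takes the 8 of highest baseMean, the 10 of largest change called with PCN, and 4 at the floor. It also takes those called by the authors in other pairs (the 8 of largest change where over 15). Outside it are Gm19696, Gm22442, Gm25395, Gm28437, and Gm15368, Gm15369 and Gm15376 in Ugt1a6b. Identifiers were out of register with symbols, so symbol plus coordinates joined the tables, with GENCODE M21 classes. The nearest named gene was taken from the same table, and for 1 model it is not reported here. Python 3.11.15, pandas 2.3.3 and numpy 2.4.6 were used.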

Additional observations from a re-analysis of the deposited data

Results flagged for a closer look

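In 123 groups of 4 libraries examined over the named models, 6 had a library that stood far from the other 3. Chance gives about 1 in 20 such groups, and 4.88% were seen. Gm49839, which overlaps Fkbp5, held 154.6 normalised counts in WT atorvastatin library 2, where the others held 31.4 to 45.9. Gm43359 held 172.1 in WT atorvastatin library 4, where the others held 123 to 127. Gm15889 held 159.4 in WT PCN library 2, where the others held 115 to 123. Gm37729 held 166.0 in PXRKO vehicle library 4, where the others held 132 to 137. Gm15371 held 106.2 in PXRKO atorvastatin library 3, where the others held 136 to 138. Gm33989 held 1270 in WT pravastatin library 2, where the others held 1345 to 1346.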

How the results depend on the processing

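For PCN, 21 models were called. The count was 36 at an adjusted p of 0.1, 33 with DESeq2, 33 in the authors' own table at 0.05, and 28 by the authors' adjusted p in the least filtered table. Over all genes the calls were 822 of 12855 at 0.1 and 757 of 19209 with DESeq2. The authors' own table held 773 genes, and their adjusted p in the least filtered table called 616 of 19209. At a floor of 50 it was 33 (of 405 models), and at a floor of 200 it was 9 (of 64). Both floors read the main fit, which called 458 of 12855 genes. Without 1 library it ran from 10 to 21, with 222 to 487 genes called in all. Other size factors, library sizes without Gm and mt- genes, and no filter (27 models called, and 500 of 19209 genes) left it within 1.5 times. Adding rows without a symbol did so too. That setting and the authors' own table were chosen after seeing the data. For the authors' calls, edgeR on listed genes gave 16 for WT atorvastatin (10 to 15 without 1 library), 0 for pravastatin (0 to 0), 4 for PXRKO vehicle (2 to 5) and 12 to 19 without 1 library for PXRKO against WT atorvastatin. Pravastatin had 4 at the authors' adjusted p of 0.1, and PXRKO vehicle 7 with no overlap of groups. The cause of these differences was not tested. None of the 21 models called with PCN changed direction when a library was left out. With no overlap of groups for 20 of them, this was nearly fixed in advance. Of the other named models, Gm4951, Gm48225 and Gm49970 changed sign with PCN in at least 1 such fit. Their log2 changes ran from -0.18 to 0.02, -0.14 to 0.04 and -0.09 to 0.37. In the other pairs, no listed named model changed sign without a library. Those models were listed by their p-value in the same libraries, so this is not an independent check. The alternative at 0.1 for PXRKO against WT atorvastatin was not run, because the table so named holds no adjusted p that high. Nearest genes of a baseMean of at least 10 kept 155 of 164 pairs. For pravastatin and vehicle, whose columns name their animals, a replicate block of the 2 series of animal numbers in the titles (added after seeing the data) called 0 models. In the other pairs no paired analysis was possible because at least 1 group's columns show the group and not the animal. Members held as few as 30 counts in a library, which limits small folds.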

Other observations

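Some rows with no symbol stand at coordinates of GENCODE models of the same kind and so fell outside the members. The largest, Gm26917 (a long intergenic noncoding RNA, chr17:39843013-39846341), had a baseMean of 460814 and took 3.47% to 3.92% of counts in the PCN libraries and 3.32% to 4.64% in the vehicle libraries. Its neighbour Gm42418 had a baseMean of 98489. GENCODE M21 places a ribosomal RNA gene (CT010467.1, chr17:39846353-39848827) across Gm42418 and directly beside Gm26917. The part of ribosomal RNA in the counts of these rows was not tested. In the authors' deposited table their log2 changes with PCN were -0.07 (adjusted p = 0.933) and 0.08 (adjusted p = 0.872). These 2 rows hold more counts than all 164 members, which took at most 0.412% of the counts on rows with a symbol.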
